A study of Arabidopsis thaliana with 4 samples.

Results

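The 69 genes of the plastid genome that have a probe set of their own were examined in shoot apices of Arabidopsis thaliana seedlings. A gene was taken where the platform annotation maps a probe set to exactly 1 gene and the RefSeq gene table places that gene in the plastid genome. Each of the 69 had 1 such probe set, among 22746 probe sets tested in all, of which those with 1 matched gene cover 13356 genes. The RefSeq table lists 78 different protein-coding symbols for this genome. All the plants were Ws-0 seedlings aged 8 days with the transgene 35S:LEC1-GR, in which the constitutive 35S promoter drives LEC1 fused to the hormone-binding domain of the glucocorticoid receptor. LEC1 is a transcription factor of embryo development, and the receptor domain holds the fusion protein inactive until dexamethasone binds it. Seedlings were grown with 16 h of light and 8 h of night at 20 °C. They then stood for 1 h in liquid medium with 1% sucrose, either with 30 µM dexamethasone or without it, and the apices were dissected afterwards. Each of the 2 groups has 2 arrays, which the series text calls biological replicates. How many plants each array holds is not stated. Since every plant carries the transgene, a response to dexamethasone itself and a response to active LEC1-GR cannot be told apart.

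The plastid genome encodes part of the photosynthetic machinery together with part of the apparatus that expresses it. Its genes lie mostly in transcription units shared by several genes, which are transcribed by a plastid-encoded polymerase that resembles the bacterial enzyme and by phage-type polymerases encoded in the nucleus. Transcript levels in plastids also depend strongly on processing and on stability set by nuclear-encoded RNA-binding proteins. In a shoot apex, the meristem holds undeveloped proplastids and the young leaves around it hold developing chloroplasts.

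All values are log2 expression values from RMA, as deposited. In each sentence the value of replicate 1 comes before that of replicate 2. Signals of different probe sets do not rank RNA amounts, so levels are described gene by gene. In bulk tissue, fewer cells of a type and less RNA per cell cannot be told apart. The medians over all probe sets were 6.61 and 6.56 in the untreated arrays and 6.59 and 6.57 in the dexamethasone arrays. A control level was taken from the highest of 27 Bacillus control probe sets, which lay between 4.68 and 4.86. Of the 69 genes, 65 lay above it in all 4 arrays, 3 (rpoB, ndhF and ndhH) lay below it in every array and rps16 lay above it in 2. The signal of 42 of them was in the top 25% of all tested probe sets. Rubisco activase (RCA), the only measured gene of 6 mesophyll markers, read 13.29 to 13.59. Of 11 shoot meristem markers only CLV3 and UFO were measured, and CLV3 was above the control level in 1 array. UFO read 4.91 to 5.20, above it in all 4. Of 8 root markers 3 were measured (PYK10, EXPA7 and EXPA18). PYK10 read 11.57 and 12.28 untreated and 11.82 and 12.01 with dexamethasone. EXPA7 read 5.03 and 6.25 untreated and 4.59 and 4.97 with dexamethasone. For EXPA18 the values were 4.86 and 6.46 untreated and 4.98 and 5.20 with dexamethasone. FAMA, the only measured marker of 6 for epidermis and guard cells, read 7.69 to 8.18, and none of 3 vascular markers was measured.

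**Figure D1:**
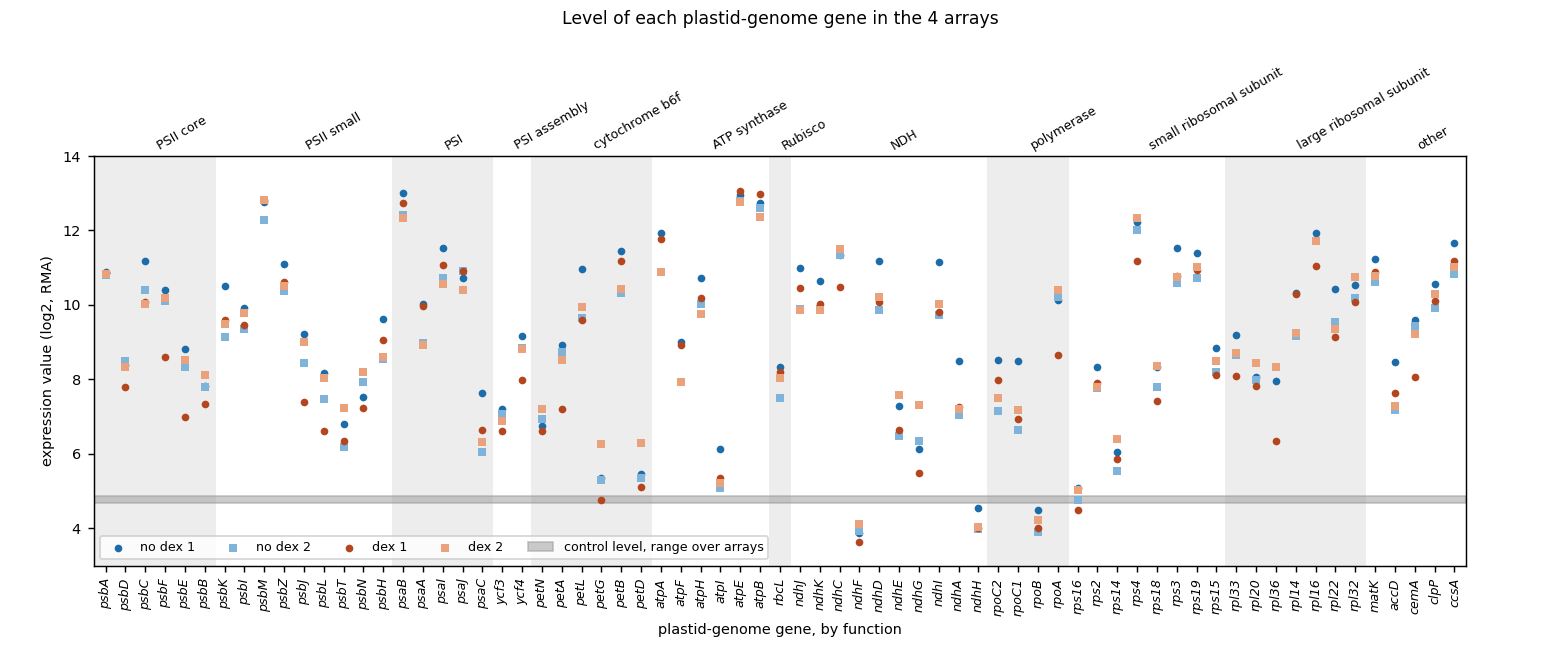
Expression value (log2, RMA) of each of the 69 plastid-genome genes in the 4 arrays, with genes ordered by function along the horizontal axis and 1 marker per array. The grey line band is the range of the control level, 4.68 to 4.86, below which rpoB, ndhF and ndhH lie in every array.

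None of the 69 plastid-genome genes differed between the groups by the test used, while 2.37% of all probe sets did (1.49% higher and 0.879% lower with dexamethasone). The test was limma with Benjamini-Hochberg adjustment over all 22746 probe sets, two-sided, at an adjusted p of 0.05. Its adjusted p ranged from 0.265 to 0.997 over the 69 genes. At an unadjusted p below 0.05 stood 2 of them (psbC and ycf3), 2.90% against 17.2% of all probe sets. A permutation of 4 arrays for a single gene could not go below p = 0.333, so no such test is given.

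The means of 55 of the 69 genes were lower with dexamethasone and those of 14 were higher. The median difference was -0.21, beside -0.02 over all probe sets, of which 53.1% had a lower mean. This direction rested on untreated replicate 1. Without that array 46 of the 69 means were higher with dexamethasone and the median was 0.13. Without untreated replicate 2 the median was -0.56, and without dexamethasone replicate 1 or 2 it was -0.19 or -0.25. In the 4 arrays the median level of the 69 genes was 9.59 and 8.85 untreated and 8.60 and 8.91 with dexamethasone, so 1 untreated array lay apart from the other three.

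Groups that did not overlap were rarer than among probe sets at large. Both dexamethasone arrays lay below both untreated arrays for 8 genes (psbC, psbD, ycf3, ycf4, cemA, petA, rpl16 and rpl22), 11.6% against 24.8% of all probe sets. Both lay above for psbM alone, 1.45% against 22.3%. In 68 of the 69 genes the replicates of at least 1 group lay further apart than the group means did, which held for 65.5% of all probe sets.

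**Figure D2:**
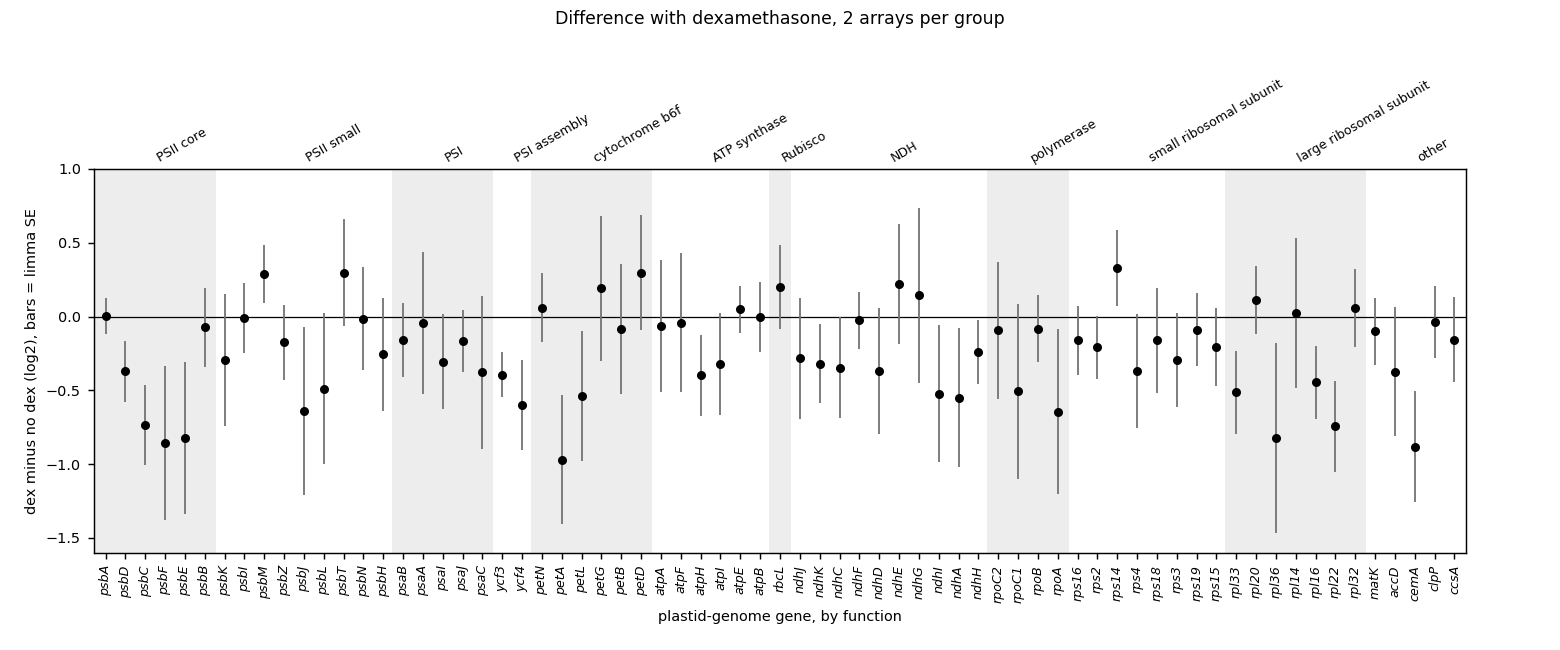
Dexamethasone minus untreated (log2) for each of the 69 genes, ordered by function, as the difference of 2 arrays per group with bars of 1 limma standard error. Most points lie below 0, from -0.97 for petA to 0.33 for rps14, and none passed the test.

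The core genes of photosystem II, the water-splitting complex, differed among themselves. The gene of its reaction centre protein that turns over fastest in the light, psbA, read 10.88 and 10.80 untreated and 10.85 and 10.84 with dexamethasone. Its difference was 0.0013 ± 0.12 (log2 difference ± limma SE, n = 2 per group throughout), and its 4 values nearly coincided. The partner reaction centre gene psbD read 8.37 and 8.49 untreated and 7.79 and 8.32 with dexamethasone, a difference of -0.37 ± 0.21. Its untreated arrays agreed closely and dexamethasone replicate 1 was the low one, without which the difference was -0.11.

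The inner antenna gene psbC, co-transcribed with psbD, had the smallest adjusted p of the 69. It read 11.17 and 10.40 without dexamethasone and 10.08 and 10.01 with it, 1.66-fold lower on average. That difference of -0.73 ± 0.27 did not pass the test (limma adjusted p = 0.265). Without untreated replicate 2, the lower of the untreated pair, the difference was -1.12 and passed the test. That fit has untreated replicate 1 alone in its group and takes its spread from the dexamethasone pair. The other inner antenna gene, psbB, read 7.82 and 7.78 against 7.35 and 8.11, a difference of -0.07 ± 0.27 with the untreated values inside the span of the dexamethasone ones. The cytochrome subunit genes psbE and psbF, whose products hold the haem of photosystem II, shared a single low array. For psbF the values were 10.41 and 10.10 untreated but 8.60 and 10.20 with dexamethasone, a difference of -0.86 ± 0.52 that was -0.06 without dexamethasone replicate 1. For psbE they were 8.82 and 8.32 against 6.98 and 8.51.

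Of the small photosystem II genes, 9 were measured, and 7 had a lower mean with dexamethasone. The dimer-contact subunit gene psbM read 12.78 and 12.28 untreated and 12.82 and 12.81 with dexamethasone. Its dexamethasone values lay above both untreated ones, the only such gene of the 69, by a margin over untreated replicate 1 smaller than the gap within the untreated pair. For psbJ, of the unit with psbE, the values were 9.22 and 8.44 untreated and 7.40 and 8.99 with dexamethasone, a difference of -0.64 ± 0.57. The largest positive difference in this class, 0.30 ± 0.36, was that of psbT, at 6.80 and 6.17 against 6.33 and 7.23. Both groups of psbT overlapped. psbN, which is needed to assemble the complex and is encoded on the opposite strand within the psbB unit, read 7.52 and 7.93 against 7.23 and 8.19.

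All 5 measured photosystem I genes had lower means, with differences between -0.38 and -0.04. The large core subunit genes lie side by side and followed the replicate number more than the treatment. psaA read 10.01 and 8.97 untreated and 9.98 and 8.91 with dexamethasone, so that replicate 1 exceeded replicate 2 by 1.04 and by 1.07. Its difference between groups was -0.04 ± 0.48. Its partner psaB showed the same order at 12.99 and 12.41 against 12.73 and 12.35, with a difference of -0.16 ± 0.25. psaC, whose product carries the terminal iron-sulphur clusters, read 7.64 and 6.06 against 6.63 and 6.31. Its difference of -0.38 ± 0.52 was smaller than the gap of 1.58 inside its untreated pair. The genes of the assembly factors ycf3 and ycf4 both lay lower without overlap. ycf3 read 7.21 and 7.06 against 6.61 and 6.87, with a difference of -0.39 ± 0.15. ycf4 read 9.16 and 8.85 against 7.99 and 8.82, and its difference of -0.60 ± 0.30 rested mostly on dexamethasone replicate 1.

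In the cytochrome b6f complex, which passes electrons between the photosystems, the 6 genes split evenly, 3 with a lower and 3 with a higher mean. petA, which encodes cytochrome f, had the largest difference of the 69. It read 8.92 and 8.74 untreated and 7.19 and 8.53 with dexamethasone, a mean 1.96-fold lower (-0.97 ± 0.44, limma adjusted p = 0.359). Leaving out dexamethasone replicate 1 reduced this difference to -0.30. The cytochrome b subunit gene petB read 11.46 and 10.32 against 11.18 and 10.43, a difference of -0.09 ± 0.44 between groups that each spanned over 0.7. petD, its neighbour and the gene of subunit IV, read 5.46 and 5.36 against 5.12 and 6.29, with a difference of 0.30 ± 0.39. The small subunit gene petG, at 5.35 and 5.30 against 4.76 and 6.27, was likewise lowest in dexamethasone replicate 1 and highest in dexamethasone replicate 2. petL, also a small subunit gene, stood highest in untreated replicate 1 instead, at 10.96 and 9.65 against 9.60 and 9.94.

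The ATP synthase genes held their replicate 1 values above their replicate 2 values in both groups, 6 of 6. The catalytic beta subunit gene atpB read 12.75 and 12.60 untreated and 12.99 and 12.35 with dexamethasone, a difference of -0.0034 ± 0.24. Its overlapping neighbour atpE, for the epsilon subunit, read 12.94 and 12.78 against 13.06 and 12.77, a difference of 0.05 ± 0.16. For atpA, the alpha subunit gene, the values were 11.92 and 10.88 against 11.78 and 10.89, and for atpF, of the membrane part, 8.99 and 7.92 against 8.91 and 7.92. In these 2 genes the groups nearly coincided once arrays of the same number were set side by side. The proton ring gene atpH had the largest difference of the class, -0.40 ± 0.28, at 10.71 and 10.04 against 10.18 and 9.77. Without untreated replicate 1 it was -0.06, and without untreated replicate 2 it was -0.74. The gene of the large Rubisco subunit, rbcL, read 8.32 and 7.50 untreated and 8.19 and 8.04 with dexamethasone. It differed by 0.20 ± 0.29, and untreated replicate 2 was the low array.

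The NDH complex, which returns electrons from ferredoxin to the plastoquinone pool in cyclic flow, had 10 measured genes, of which 8 had a lower mean. The largest of these differences was that of ndhA, -0.55 ± 0.47, at 8.50 and 7.05 untreated and 7.25 and 7.20 with dexamethasone. Untreated replicate 1 stood more than 1 log2 unit above the other three arrays. The fit without untreated replicate 2, which leaves untreated replicate 1 alone in its group, called ndhA lower (-1.28). ndhI, at 11.15 and 9.74 against 9.81 and 10.04, and ndhD, at 11.17 and 9.87 against 10.09 and 10.21, were also highest in untreated replicate 1, by 1.11 and 0.96 over the next array, and were not called in that fit. Their neighbours ndhE and ndhG, in the same transcription unit, had dexamethasone replicate 2 as their highest array. ndhE read 7.28 and 6.49 against 6.63 and 7.58, a difference of 0.22 ± 0.41. ndhG read 6.14 and 6.35 against 5.47 and 7.31, with the 2 dexamethasone arrays as its lowest and highest values. ndhC was flat across 3 arrays and low in dexamethasone replicate 1, at 11.34 and 11.33 against 10.47 and 11.50. ndhF and ndhH lay below the control level, so their values carry little information.

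The 4 genes of the plastid-encoded RNA polymerase all had lower means with dexamethasone. rpoA, for the alpha subunit, read 10.12 and 10.22 untreated and 8.65 and 10.40 with dexamethasone, a difference of -0.64 ± 0.56 that came from 1 array. The other three form a unit that is known to be transcribed by the nuclear-encoded polymerase. rpoC1 read 8.48 and 6.64 against 6.94 and 7.17, a difference of -0.51 ± 0.59. The gap within its untreated pair, 1.84, was the widest of the 69 genes in that group. rpoC1 also passed the test in the fit without untreated replicate 2 (-1.43), whose spread came from the dexamethasone pair. rpoC2 read 8.51 and 7.16 against 7.99 and 7.49, a difference of -0.09 ± 0.46. rpoB, at 3.90 to 4.48 over the 4 arrays, lay below the control level and differed by -0.08 ± 0.23. With ndhA and psbC, rpoC1 made up the 3 genes called in that fit, 4.35% of the 69 beside 0.831% of all probe sets called lower there. Their sign was kept without untreated replicate 1 only by psbC.

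Genes of the plastid ribosome numbered 15, with 7 of 8 small-subunit and 4 of 7 large-subunit means lower. rps4, the gene of a protein that starts small-subunit assembly in bacteria, read 12.22 and 12.01 untreated and 11.17 and 12.32 with dexamethasone, a difference of -0.37 ± 0.39. rps14 had the largest positive difference of all 69, 0.33 ± 0.26, at 6.05 and 5.54 against 5.86 and 6.39, and its groups overlapped. Without dexamethasone replicate 2 or untreated replicate 2 that difference was 0.07 in either case, and without dexamethasone replicate 1 it was 0.59. rps16 was near the control level at 5.09 and 4.76 against 4.48 and 5.04. In the large subunit, rpl36 read 7.96 and 8.34 against 6.34 and 8.32. Its difference between groups was -0.82 ± 0.64, while dexamethasone replicate 1 stood at -1.98 relative to replicate 2, the widest gap of that pair among the 69. rpl16 lay lower without overlap at 11.94 and 11.71 against 11.05 and 11.71, although its dexamethasone replicate 2 was only just below untreated replicate 2. rpl22 also lay lower without overlap, at 10.42 and 9.55 against 9.12 and 9.35. The largest positive difference in this class was that of rpl20, 0.11 ± 0.23, at 8.07 and 7.97 against 7.82 and 8.44.

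The remaining 5 genes have separate roles, and all had lower means. accD, for a subunit of the acetyl-CoA carboxylase that begins fatty acid synthesis, read 8.47 and 7.17 untreated and 7.62 and 7.28 with dexamethasone, a difference of -0.37 ± 0.44. clpP, a subunit gene of the stromal protease, read 10.56 and 9.91 against 10.11 and 10.29 and differed by -0.04 ± 0.24. matK, for the maturase of plastid introns, read 11.23 and 10.62 against 10.88 and 10.77, a difference of -0.10 ± 0.23. In these 3 genes untreated replicate 1 was highest and untreated replicate 2 lowest, with both dexamethasone arrays between them. ccsA, needed to attach haem to c-type cytochromes, followed the same order at 11.66 and 10.83 against 11.17 and 11.01. cemA, which encodes an envelope membrane protein, read 9.59 and 9.45 against 8.07 and 9.21, lower without overlap by -0.88 ± 0.38 (limma adjusted p = 0.334). That difference was -0.31 without dexamethasone replicate 1 and -1.45 without dexamethasone replicate 2.

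The spread of the plastid-genome genes between arrays was wide. The 4 arrays spanned at least 1 log2 unit in 36 of the 69 genes, 52.2% against 11.1% of all probe sets. The median gap was 0.59 within the untreated pair and 0.52 within the dexamethasone pair, beside 0.18 and 0.15 over all probe sets. Over the 69 genes the most similar arrays belonged to different groups. The SD of the difference was 0.34 between untreated replicate 2 and dexamethasone replicate 2, but 0.75 within the dexamethasone pair and 0.51 within the untreated pair. Over all probe sets the dexamethasone pair was the closest, at 0.28, and those 2 replicate 2 arrays stood at 0.52. For 11 genes of the mitochondrial genome the median gaps were 0.26 and 0.15. Their median difference between groups was -0.09, 10 of the 11 means were lower and none was called.

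Untreated replicate 1 was the highest array for 47 of the 69 genes, 68.1% against 26.9% of all probe sets, and the lowest for none. It stood at least 0.5 above the next array in 18 genes, 26.1% against 1.47% of all probe sets. These were psbK, atpH, atpI, rpoC1, rpoC2, psbC, ndhJ, ndhK, accD, petL, psbH, rps3, rpl22, ndhD, psaC, ndhI, ndhA and ndhH. Of these, ndhH lay below the control level in every array. Dexamethasone replicate 1 stood at least 0.5 below the next array in 16 genes, 23.2% against 0.523% of all probe sets. These were psbD, rps4, ndhC, ycf4, cemA, petA, psbJ, psbL, psbF, psbE, petG, rpl33, rpoA, rpl36, rpl16 and ndhG. The step of 0.5 was chosen after the values were seen, and both lists are descriptions. For 26 genes both replicate 1 arrays lay above both replicate 2 arrays, 37.7% against 13.5% of all probe sets.

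**Figure D3:**
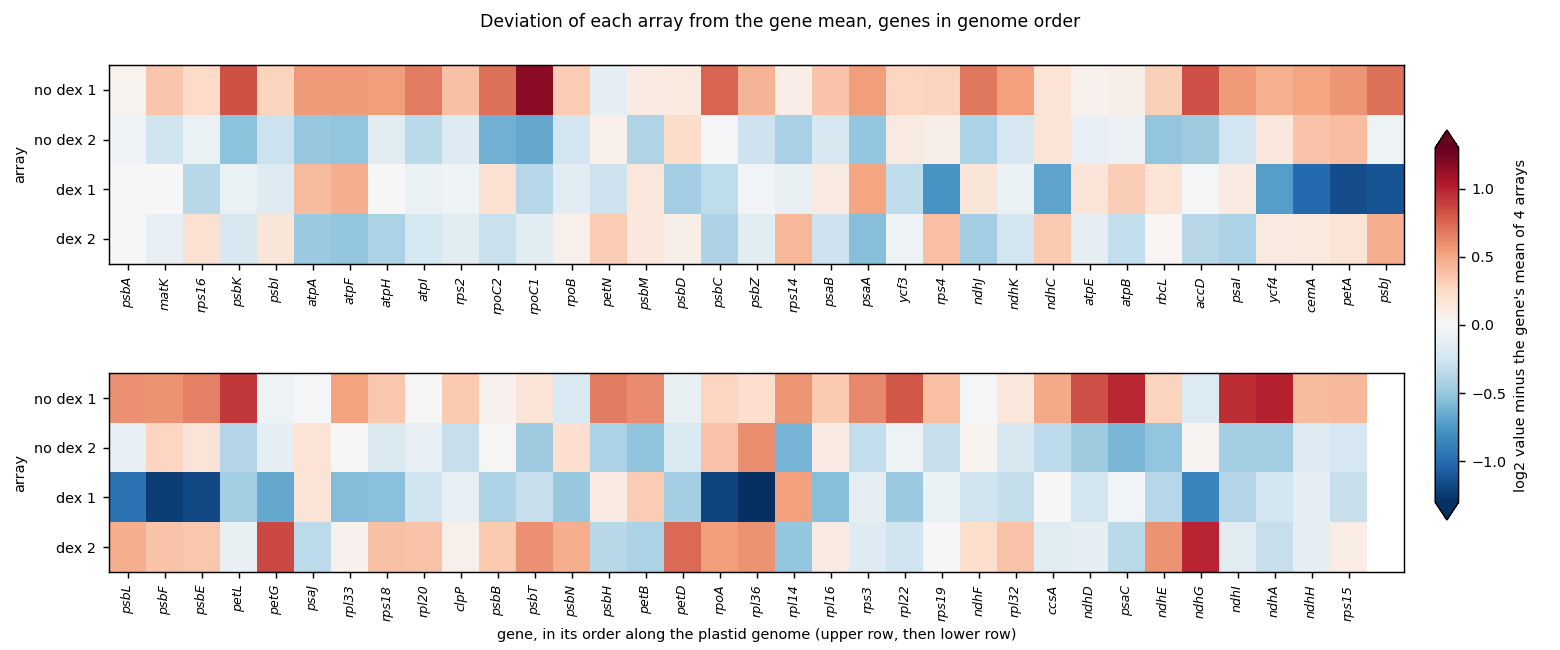
Deviation of each array from the gene's own mean over the 4 arrays (log2, colour), with the 69 genes in their order along the plastid genome, read through the upper and then the lower row. Red runs in untreated replicate 1 and dark blue blocks in dexamethasone replicate 1, such as cemA to psbE, span several neighbouring genes.

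Neighbouring genes and transcription units were compared for the order of their arrays. In 44 of the 69 pairs of neighbours in the circular gene order the same array was highest, and in 33 the same array was lowest. Such counts rise where a few arrays are extreme in most genes, and here untreated replicate 1 was highest in 47 genes, while untreated replicate 2 and dexamethasone replicate 1 were each lowest in 29. Of the 15 transcription units with at least 2 measured genes, which hold 57 of the 69, all members shared the highest array in 6 and the lowest in 5. In the 4 genes of the unit psbE-psbF-psbL-psbJ dexamethasone replicate 1 minus replicate 2 was between -1.59 and -1.44, while untreated replicate 1 exceeded replicate 2 by 0.31 to 0.78. For psbL this meant 8.16 and 7.46 untreated and 6.60 and 8.04 with dexamethasone. The unit rps2-atpI-atpH-atpF-atpA kept replicate 1 above replicate 2 in both groups in all 5 genes, by 0.55 to 1.07 untreated and 0.09 to 0.99 with dexamethasone.

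Other units divided inside. In the unit accD-psaI-ycf4-cemA-petA the first genes, accD and psaI, had dexamethasone replicate 1 above replicate 2, by 0.35 and 0.52. The following genes ycf4, cemA and petA had it below, by -0.83, -1.14 and -1.33. psaI, a small photosystem I gene, read 11.53 and 10.73 untreated and 11.08 and 10.56 with dexamethasone. In the psbB unit, psbH and petB had dexamethasone replicate 1 higher by 0.46 and 0.75, whereas psbB, psbT and petD had it lower, by -0.76, -0.90 and -1.18. The unit of ribosomal protein genes that ends in rpoA held the extremes side by side. rpl14 stood 1.04 higher in dexamethasone replicate 1 than in replicate 2, at 10.33 and 9.15 untreated against 10.28 and 9.25. Its neighbours rpl36 and rpl16 stood at -1.98 and -0.66 on the same measure. Across the 69 genes the untreated and dexamethasone replicate differences correlated at 0.56, a description over genes that share arrays and transcripts. Replicate 1 lay above replicate 2 in both groups for 28 genes. For 33 it lay above in the untreated group but below with dexamethasone.

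**Figure D4:**
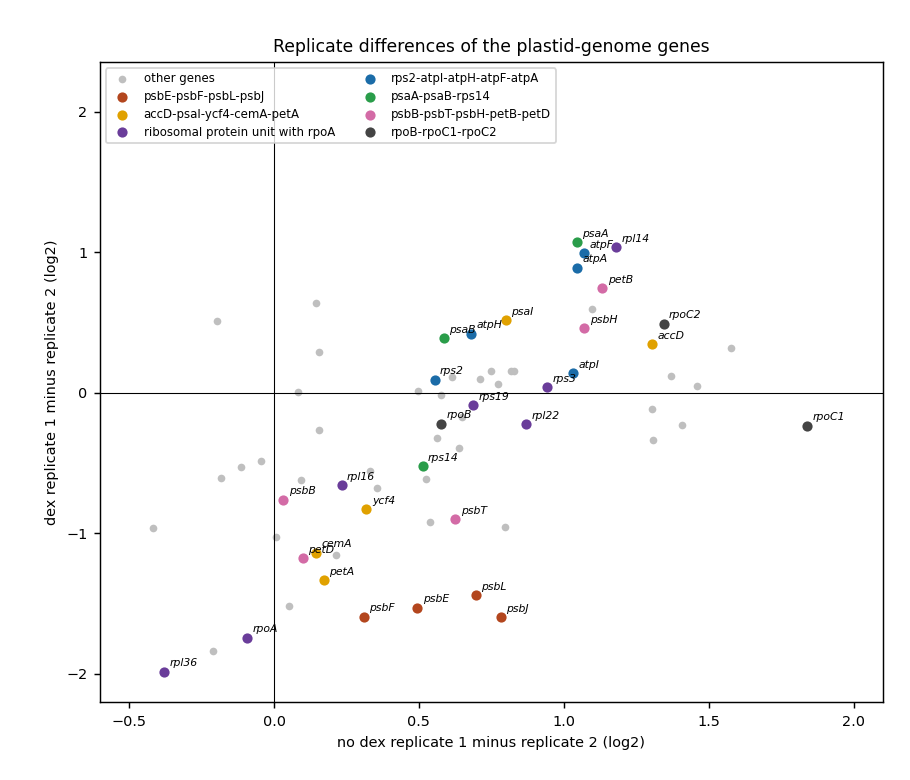
Replicate 1 minus replicate 2 (log2) in the untreated group (horizontal) and in the dexamethasone group (vertical) for the 69 plastid-genome genes, 1 point per gene, with the transcription units of the key in colour. The psbE unit lies at -1.59 to -1.44 on the vertical axis, while the unit with atpA lies above 0 on both axes.

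Some control values moved with the arrays. The probe set for cytosolic 25S ribosomal RNA read 8.22 and 10.96 untreated and 8.96 and 10.48 with dexamethasone, so that it was lower in both replicate 1 arrays. The 3′ minus 5′ signal of actin was 0.99 and 1.07 against 1.08 and 1.43, and that of GAPDH ranged from -0.10 to 0.07. For ubiquitin it ranged from 0.70 to 0.79. Each of the 3 root markers given above was highest in untreated replicate 2. The part of these values in the plastid results was not tested.

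The 7 measured nuclear genes of the same complexes did not follow the plastid genes through the arrays. Dexamethasone replicate 2 was the highest array in all 7. Of 35 listed nuclear genes for photosynthetic electron transport 7 were measured (PSAE1, PSAN, PSBW, PSBY, ATPC1, NDHL and NDHN), all with higher means with dexamethasone, and none was called in either direction. Their median difference was 0.15, and their median gaps were 0.05 within the untreated pair and 0.17 within the dexamethasone pair. PSBY, a small photosystem II protein gene, read 12.03 and 12.03 untreated and 12.72 and 12.72 with dexamethasone (0.69 ± 0.12, limma adjusted p = 0.063). NDHN, of the NDH complex, read 8.18 and 8.17 against 8.62 and 8.89 (0.58 ± 0.15, limma adjusted p = 0.133). These 2 genes were named for having the smallest limma p of the 7, and in both the groups did not overlap. Both dexamethasone arrays lay above both untreated arrays in 4 of the 7, 57.1% against 22.3% of all probe sets.

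Of the other nuclear lists few members had a probe set of their own, and none was called without a replicate block. The antenna genes LHCB4.1 and LHCB4.2, 2 of 13, differed by 0.03 ± 0.13 and 0.52 ± 0.24. PORB, the 1 measured gene of 9 for chlorophyll synthesis, differed by -0.85 ± 0.28 (limma adjusted p = 0.218) and passed the test only in the fit with a replicate block (limma adjusted p = 0.0466). RPOTMP, a phage-type polymerase gene of plastids and mitochondria and the 1 measured of 20 genes for plastid transcription, read 6.66 and 6.37 untreated and 6.24 and 5.94 with dexamethasone (-0.42 ± 0.18). CRP1, needed in maize to process the petB and petD RNA and to translate petA and petD, was the 1 measured of 12 RNA maturation genes. It read 8.08 and 7.54 against 8.12 and 8.28 (0.39 ± 0.21). None of 9 nuclear genes for plastid ribosomal proteins was measured.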

How the data were processed

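Microarray expression was measured in 4 samples of dissected shoot apices. The values deposited by the authors are on a log2 scale, and per the submitters' processing notes RMA and the affy package produced them. Versions and filters are not stated. RMA forces arrays to a common distribution, which hides any shift common to all transcripts. How the first cDNA strand was primed, which bears on plastid RNA because little of it carries a stable poly(A) tail, is not stated. Arrays have no read depth, and precision is limited by having only 2 per group.

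The table held 22810 probe sets. After 64 control probe sets were left out, 22746 were tested. The annotation matched 13513 probe sets to 1 gene and 503 to several. Gene placement came from the RefSeq table (TAIR10.1), whose plastid locus tags differ in form from the ATCG codes, so genes were matched by gene ID. Its coordinates served only for gene order. Function classes and transcription units follow textbook knowledge. The members, the classes and the lists were chosen with earlier results of these data known. Values in all arrays were to be given for a set of core genes, and for the largest rise, largest fall, highest and lowest mean of each class. The other members' values were added after they were seen.

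The comparison used lmFit and eBayes without a block (limma 3.58.1, R 4.3.3, prior degrees of freedom 3.09), and tables were made in Python 3.11.15. In simulated data with 22746 probe sets, 200 of them changed, the fit recovered 15.0% of 2-fold, 52.8% of 4-fold and 79.4% of 8-fold changes. It also made 5 false calls. The changed probe sets were drawn at random from all of them, whose median SE in the real data was 0.15. For the 69 genes the median SE was 0.32, so these shares do not apply to them. Alternatives were a replicate block, removal of dim probe sets, 3 other scalings, eBayes with a trend or robust prior, no moderation, a test on probe sets of 1 gene, and leaving out each array. Averaging probe sets of a gene changes nothing, as each member has 1.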

Additional observations from a re-analysis of the deposited data

How the results depend on the processing

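No plastid-genome gene was called under any alternative except the fit without untreated replicate 2, and leaving out 1 array gave 0 to 3 genes called lower and 0 called higher. The median difference of -0.21 ranged from -0.563 to 0.126 when 1 array was left out, positive only without untreated replicate 1, and the number of lower means from 23 to 61. With the dimmest 30% or 50% of probe sets removed the medians were -0.21 over 65 genes and -0.27 over 60, and the 3 further scalings gave -0.20, -0.21 and -0.19. Over all probe sets the counts called higher and lower, 339 and 200, became 559 and 300 under the replicate block, 172 and 101 when only probe sets of 1 gene were tested, and 0 and 0 without moderation, where 2580 had an unadjusted p below 0.05. When 1 array was omitted the ranges were 0 to 734 and 0 to 458, with 0 calls without either dexamethasone array (2672 and 2448 at an unadjusted p below 0.05 in limma). These fits borrow the spread of the complete group for the array left alone. With the replicate block the smallest adjusted p of the 69 genes was 0.149 and the median stayed at -0.21, while PORB was called (-0.853, limma adjusted p = 0.0466). The replicate differences of the groups correlated at 0.227 over all probe sets, and with just 2 pairs the shared numbers were not taken as a pairing. PSBY passed without the dimmest 50% of probe sets (limma adjusted p = 0.0487). Of 40 gene differences given, 25 changed sign in at least 1 fit that left out an array and 2 under another scaling. The latter were atpB, at 0.00182 with arrays centred on their median and 0.017 with arrays centred on nuclear genes, and LHCB4.1, at -0.0127 with quantile normalization once more. Without 1 array the ranges were -0.0408 to 0.0435 for psbA, -0.452 to 0.307 for psbB, -1.44 to 0.157 for psbJ, -0.152 to 0.747 for psbT, -0.58 to 0.492 for psaA, -0.453 to 0.132 for psaB and -1.17 to 0.41 for psaC. They were -0.652 to 0.48 for petB, -0.291 to 0.886 for petD, -0.321 to 0.314 for atpB, -0.0966 to 0.192 for atpE, -0.208 to 0.608 for rbcL, -1.28 to 0.179 for ndhA and -0.255 to 0.698 for ndhE. For the genes of expression they were -1.52 to 0.226 for rpoA, -0.372 to 0.205 for rpoB, -1.43 to 0.414 for rpoC1, -0.767 to 0.578 for rpoC2, -0.947 to 0.206 for rps4, -0.199 to 0.423 for rpl20 and -1.82 to 0.167 for rpl36. The last were -1.02 to 0.279 for accD, -0.362 to 0.285 for clpP, -0.406 to 0.206 for matK and -0.0323 to 0.0955 for LHCB4.1. For none of these was the cause tested. The median of the 7 nuclear electron transport genes, 0.15, ranged from 0.07 to 0.24, a choice added after the data were seen. Signal near the control level limits rpoB, ndhF, ndhH and rps16.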

Other observations

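A further 8 probe sets were each matched by the annotation to 2 gene entries of the plastid genome, and thus belong to no single gene. Their genes lie wholly or partly in the inverted repeat, of which the plastid genome holds a second copy. Whether the probes themselves lie in the repeat was not checked. None of the 8 probe sets was called by limma, the smallest unadjusted p among them being 0.0937. Lower means with dexamethasone were seen in 7 of 8, 87.5% against 53.1% of all probe sets, and their median difference was -0.19. Untreated replicate 1 was the highest array in 6 of the 8, as in most of the 69 genes. Both dexamethasone arrays lay below both untreated arrays in 3, 37.5% against 24.8% of all probe sets. rpl2, a large ribosomal subunit gene, read 12.30 and 11.75 untreated and 12.005 and 11.97 with dexamethasone (replicates 1 and 2, log2). For rps7, a small ribosomal subunit gene, the values were 11.67 and 11.43 against 11.34 and 11.43, a span of 0.33 over the 4 arrays. ndhB, of the NDH complex, read 5.48 and 5.20 against 4.55 and 5.86, with dexamethasone replicate 1 lowest and dexamethasone replicate 2 highest, as in ndhG. ycf1, for a large essential plastid protein, read 9.66 and 8.81 against 9.12 and 8.74, so that both replicate 1 arrays lay above both replicate 2 arrays. The 2 probe sets of rps12, whose RNA is joined from separate transcripts, differed by -0.62 ± 0.30 and -0.31 ± 0.18 (limma SE), and in each both dexamethasone arrays lay below both untreated arrays. rpl23 read 10.92 and 10.54 against 10.51 and 10.50, also without overlap, and ycf2 lay near the control level at 4.59 and 4.79 against 4.46 and 5.03.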
